A study of Mus musculus with 24 samples.

Results

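The genes described here are 10 transcripts of the choroid plexus epithelium, measured in RNA of the mouse hippocampus: Ttr, Aqp1, Slc4a5, Kcnj13, Clic6, Folr1, Kl, Prlr, Enpp2 and Otx2. They were picked by symbol, and the choice was made with their values in these same arrays known, so their levels and differences are given as a description. The array carried 16 probes for them among 56605 probes, and after a filter on dim probes all 10 genes were among the 35259 features tested. No member was lost to the filter.

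Hippocampal RNA of male mice, in 24 samples, was labelled with a single dye and hybridised to Agilent arrays, 1 array per sample. All animals carry the label of the APP/PS1 strain on a B6 background, whose transgenic members form amyloid plaques. The animals called WT are those labelled as lacking the transgenes. Urolithin A arises when gut bacteria break down ellagitannins of the diet. APP-PS1_UA (n = 4, transgenic) received urolithin A by gavage for 5 months. APP-PS1_CTR (n = 3, transgenic) and WT_CTR (n = 4, without the transgenes) are labelled as treated with water, and all 3 of these groups are labelled 8 months old. APP-PS1_UA-WASHOUT (n = 5, transgenic) received urolithin A for 5 months and then went without it for 1 month. APP-PS1_WASHOUT (n = 3, transgenic) and WT_WASHOUT (n = 5, without the transgenes) are labelled water with washout, and these 3 groups are labelled 9 months old. Gavage is listed as running between 2 and 7 months of age in all groups, also in those labelled water. For the dose, the treatment protocol says 200 mg/kg/day but the design text 20 mg/kg/day, and for age the design text has collection at 7 months and 1 month later. Nothing in the labels says how the hippocampus was separated from the tissue around it.

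The choroid plexus is a folded epithelium that hangs in the brain ventricles, including the lateral ventricle next to the hippocampus, and it secretes cerebrospinal fluid. Its cells move sodium, bicarbonate, chloride and water from blood to ventricle, carry hormones and vitamins across, and sit on leaky capillaries. They descend from the same neuroepithelium as the ciliated ependymal cells that line the ventricle. In bulk tissue, fewer choroid plexus cells and less RNA per cell cannot be told apart.

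Otx2 encodes a homeobox factor that the choroid plexus epithelium needs to form and to keep its identity, and forkhead factors such as Foxj1 act in the ciliated cells beside it. Because the members move together between arrays, the 250 bases before annotated starts were searched on both strands for TAATCC, the core of OTX and bicoid-type homeobox sites, and for GTAAACA, a core of forkhead sites. RefSeq windows on GRCm38.p6 were searched for 6 members, namely Otx2, Prlr, Kcnj13, Kl, Aqp1 and Slc4a5, which have 11 windows in all. TAATCC was present in 1 of these 11 windows and in 6.25% of all 32851 windows, and GTAAACA in 1 of 11 and in 3.17% of all. The windows that hold a match are printed 5′ to 3′ in the direction of the gene, with the matched letters in capitals. Both matches lie on the opposite strand and so read as the reverse complement, beginning 211 bases before the start in Otx2 and 215 bases before it in Prlr. They are shown as sequence context for genes that move together, since a match of letters is not a binding site, and no match says only that the letters are not in these windows.
Otx2, chr14:48665110-48665359, minus strand: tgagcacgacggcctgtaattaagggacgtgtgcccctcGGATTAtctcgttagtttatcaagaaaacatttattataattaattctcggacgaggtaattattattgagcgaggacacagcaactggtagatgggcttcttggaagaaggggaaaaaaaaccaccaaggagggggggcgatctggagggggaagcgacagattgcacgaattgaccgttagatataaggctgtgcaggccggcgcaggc
Prlr, chr15:10223656-10223905, plus strand: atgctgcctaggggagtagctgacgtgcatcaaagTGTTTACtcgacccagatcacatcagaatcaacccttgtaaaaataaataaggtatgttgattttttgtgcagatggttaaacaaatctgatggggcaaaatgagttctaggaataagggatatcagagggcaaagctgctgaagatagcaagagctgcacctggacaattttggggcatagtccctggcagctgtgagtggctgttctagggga

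Values are log2 processed signals minus the 75th percentile of the same array, so 0 is the level of a fairly bright spot. Levels of different genes are not compared with each other. The arrays lay on 3 slides of 8. Slide 1 held APP-PS1_UA 1, APP-PS1_CTR and WT_CTR. Slide 2 held WT_WASHOUT with APP-PS1_UA 2, 3 and 4, and slide 3 held APP-PS1_UA-WASHOUT and APP-PS1_WASHOUT. Spots well above background made up 63.7% to 76.9% of an array, the subtracted 75th percentile was 1285 to 2292 on the linear scale, and 0 spots were saturated. The probes used for 9 members were well above background on 24 of 24 arrays. The probe used for Slc4a5 was so on 20 arrays and was not on APP-PS1_UA 4, APP-PS1_UA-WASHOUT 2, WT_WASHOUT 1 and WT_WASHOUT 4.

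Ttr encodes transthyretin, which carries thyroxine and the retinol-binding protein in cerebrospinal fluid. Its log2 signal was 6.87, 5.14, 2.22 and 0.27 in APP-PS1_UA, 6.33, 6.59 and 6.51 in APP-PS1_CTR, and 6.80, 1.20, 5.81 and 3.16 in WT_CTR. After washout it was 7.14, 1.78, 6.97, 7.26 and 3.10 in APP-PS1_UA-WASHOUT, 3.97, 3.09 and 7.27 in APP-PS1_WASHOUT, and 0.78, 4.03, 6.36, 0.68 and 6.36 in WT_WASHOUT. Every group but APP-PS1_CTR held both high and low arrays, and APP-PS1_CTR lay inside the range of WT_CTR. These values are of the probe used, which flattens in the upper arrays. The other Ttr probe read 2.1, 3.69 and 3.74 in APP-PS1_CTR, and at most 3.6 in WT_CTR. On the probe used, the range over all arrays was 7.00 log2 units, or 128-fold, from APP-PS1_UA 4 to APP-PS1_WASHOUT 3. By group mean the order was APP-PS1_CTR (6.48 ± 0.14), APP-PS1_UA-WASHOUT (5.25 ± 2.61), APP-PS1_WASHOUT (4.78 ± 2.20), WT_CTR (4.24 ± 2.54), WT_WASHOUT (3.64 ± 2.82) and APP-PS1_UA (3.63 ± 2.95, SD). No neighbours in this order differ by more than the larger of their SDs. Differences between groups made up 15.9% of the variance of Ttr over the 24 arrays, the highest share of the 10 members.

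**Figure D1:**
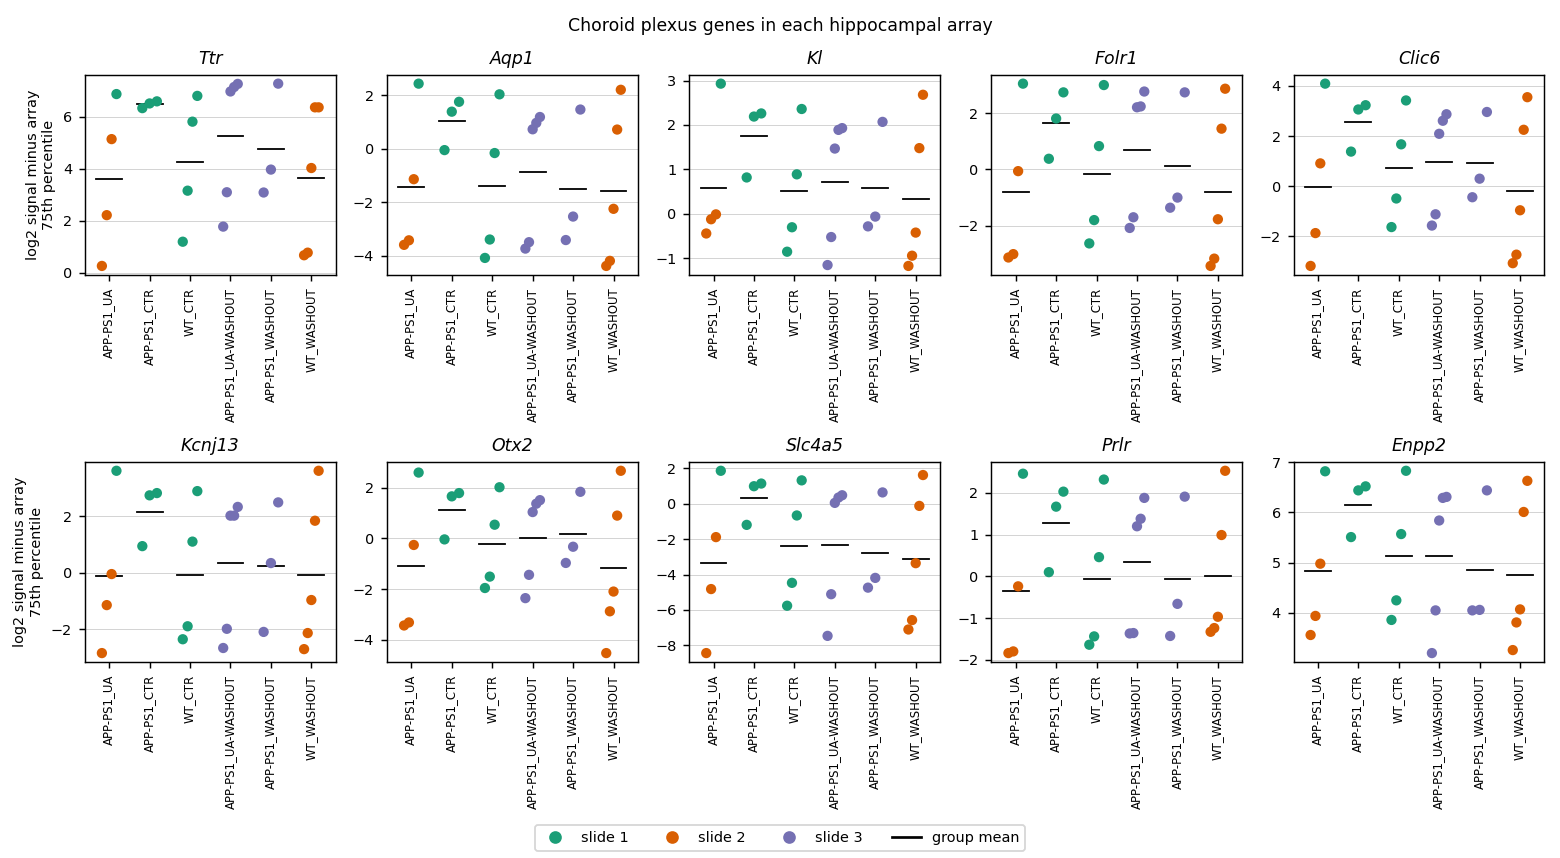
Log2 signal minus the array's 75th percentile (y axis) of the 10 choroid plexus genes in the 6 groups (x axis). Each point is an array coloured by slide, and the black line is the group mean. Nearly every group spans most of a gene's range. On the probes used, the 3 APP-PS1_CTR arrays lie within the range of WT_CTR for every gene. Ttr lies between 6.33 and 6.59 there, on a probe that flattens in the upper arrays.

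Aqp1, the water channel of the apical membrane, followed the same arrays. Its log2 signal was 2.44, -1.14, -3.43 and -3.60 in APP-PS1_UA, -0.05, 1.39 and 1.76 in APP-PS1_CTR, and 2.04, -4.09, -0.16 and -3.40 in WT_CTR. After washout it was 0.97, -3.74, 0.73, 1.19 and -3.50 in APP-PS1_UA-WASHOUT, -2.54, -3.42 and 1.47 in APP-PS1_WASHOUT, and -4.20, -2.25, 0.72, -4.39 and 2.21 in WT_WASHOUT. The arrays that were low for Ttr were low here, and groups overlapped in each comparison. The range was 6.82 log2 units, or 113-fold.

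Slc4a5 encodes a sodium bicarbonate cotransporter of the ventricular face and had the widest measured range of the members. Its log2 signal was 1.85, -1.89, -4.82 and -8.43 in APP-PS1_UA, -1.20, 0.98 and 1.13 in APP-PS1_CTR, and 1.31, -5.76, -0.67 and -4.47 in WT_CTR. After washout it was 0.47, -7.46, 0.04, 0.34 and -5.11 in APP-PS1_UA-WASHOUT, -4.19, -4.74 and 0.63 in APP-PS1_WASHOUT, and -7.10, -3.36, -0.13, -6.57 and 1.61 in WT_WASHOUT. The lowest 4 values, all below -6, come from the 4 arrays on which this probe was not well above background. They are readings near the background rather than levels, and the true level may lie above or below them.

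Kcnj13, the inward rectifier potassium channel Kir7.1, ranged over 6.47 log2 units, between -2.85 in APP-PS1_UA 4 and 3.61 in WT_WASHOUT 5. Clic6, a chloride intracellular channel family member, ranged over 7.27, between -3.18 in APP-PS1_UA 4 and 4.09 in APP-PS1_UA 1. Both ends of the Clic6 range were thus arrays of the same group. Folr1, the receptor that takes folate across the epithelium, ranged over 6.48, or 89.6-fold, between -3.43 in WT_WASHOUT 1 and 3.05 in APP-PS1_UA 1.

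Kl encodes klotho, a coreceptor for a fibroblast growth factor hormone whose shed form is found in cerebrospinal fluid. It spanned less, 4.10 log2 units, between -1.17 in WT_WASHOUT 1 and 2.93 in APP-PS1_UA 1. Prlr, the receptor for the pituitary hormone prolactin, spanned 4.38 units between -1.84 in APP-PS1_UA 4 and 2.53 in WT_WASHOUT 5. In every APP-PS1_CTR array both genes lay above the 3 lower APP-PS1_UA arrays and below the fourth, APP-PS1_UA 1.

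Enpp2 encodes autotaxin, the secreted lysophospholipase D that makes lysophosphatidic acid and that oligodendrocytes also express. It had the narrowest range, 3.63 log2 units, or 12.4-fold. Its log2 signal was 6.82, 4.98, 3.94 and 3.56 in APP-PS1_UA, 5.51, 6.44 and 6.52 in APP-PS1_CTR, and 6.83, 3.86, 5.57 and 4.25 in WT_CTR. After washout it was 6.29, 3.20, 5.84, 6.31 and 4.05 in APP-PS1_UA-WASHOUT, 4.05, 4.06 and 6.44 in APP-PS1_WASHOUT, and 3.26, 4.07, 6.01, 3.81 and 6.63 in WT_WASHOUT. The order of the arrays was close to that of Aqp1, at a smaller scale.

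Otx2, the transcription factor of the list, ranged over 7.19 log2 units. Its log2 signal was 2.60, -0.26, -3.32 and -3.44 in APP-PS1_UA, -0.04, 1.79 and 1.66 in APP-PS1_CTR, and 2.02, -1.96, 0.54 and -1.51 in WT_CTR. After washout it was 1.51, -2.36, 1.04, 1.37 and -1.44 in APP-PS1_UA-WASHOUT, -0.33, -0.97 and 1.84 in APP-PS1_WASHOUT, and -4.53, -2.10, 0.90, -2.88 and 2.67 in WT_WASHOUT. The regulator was high and low in the same arrays as the transporters, receptors and secreted proteins. The printed promoter windows belong to Otx2, with this range, and to Prlr, with a range of 4.38 log2 units. The deviations of these 2 genes from their group means had an r of 0.951, below the median of 0.973 over all pairs of members.

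The genes varied together between arrays, whatever the group. To leave group means aside, each array's deviation from the mean of its own group was taken for every gene. Over the 24 arrays the 45 pairs of members had a median Pearson r of 0.973, between 0.898 for Ttr with Kl and 0.994 for Aqp1 with Folr1. The median Spearman rho was 0.963, between 0.912 and 0.989. A first principal component held 97.2% of the summed variance of the members. Aqp1 and Folr1 followed the mean of the other 9 genes most closely (r = 0.992 each), and Ttr least (0.960).

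The mean of the 10 log2 signals, called the choroid plexus score here, was 3.67, 0.74, -1.38 and -2.26 in APP-PS1_UA, 1.42, 2.87 and 3.07 in APP-PS1_CTR, and 3.30, -1.57, 1.60 and -0.81 in WT_CTR. After washout it was 2.74, -1.74, 2.37, 2.74 and -0.96 in APP-PS1_UA-WASHOUT, -0.01, -0.76 and 2.98 in APP-PS1_WASHOUT, and -2.34, -0.47, 2.19, -1.96 and 3.47 in WT_WASHOUT. Over a range of 6.01 the largest step between neighbouring arrays was 0.75. Between -0.01 and 2.19 lay only the scores 0.74, 1.42 and 1.60, and whether the scores form clusters was not tested. The score lay below 0 in 11 arrays and above 0 in 13, and the highest and the lowest arrays came from different groups. Groups made up 11.6% of its variance.

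**Figure D2:**
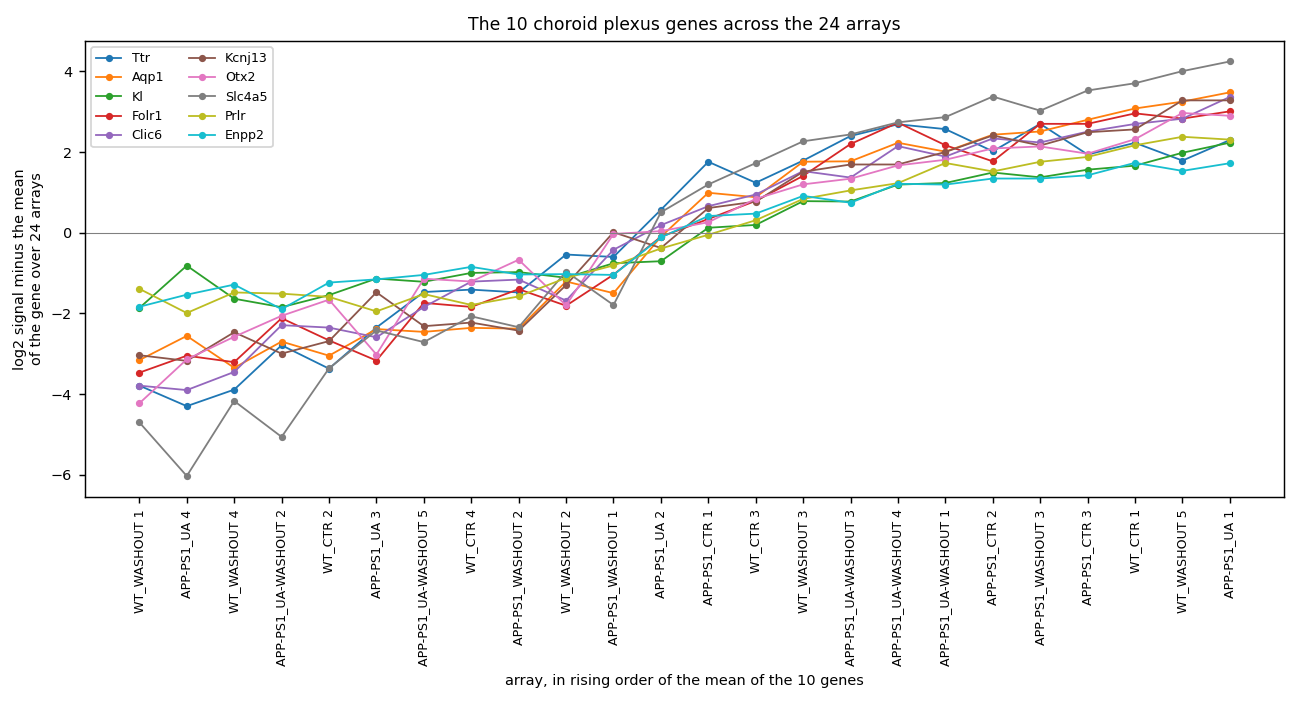
The 24 arrays in rising order of the mean of the 10 genes (x axis), against the log2 signal of each gene minus its own mean over the arrays (y axis). The lines climb together from WT_WASHOUT 1 to APP-PS1_UA 1, flattest for Enpp2, which spans 3.63. The steepest is Slc4a5, whose 4 lowest points were not well above background.

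Each slide held both low and high scores: -1.57 to 3.67 on slide 1, -2.34 to 3.47 on slide 2 and -1.74 to 2.98 on slide 3. The median r over pairs was 0.984 within slide 1 (7 arrays, without the lone APP-PS1_UA array), 0.964 within slide 2 (8 arrays) and 0.986 within slide 3 (8 arrays). Points on a slide share their hybridisation and scan. Over the 24 arrays the score had an r of -0.02 with the percentage of spots well above background, and of 0.19 with the linear 75th percentile.

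The members did not scale alike. Per log2 unit of the mean of the other 9 genes, Slc4a5 changed by 1.64 units, Aqp1 by 1.17, Folr1 by 1.12, Ttr by 1.11, Clic6 by 1.10 and Kcnj13 by 1.07. Otx2 changed by 0.96, Prlr by 0.70, Kl by 0.59 and Enpp2 by 0.57. The slope of Slc4a5 uses the measured values of the 4 arrays on which its probe was not well above background, so neither it nor the remainder of this gene is exact. The remainder was taken from a separate fit, a quadratic curve on the mean of the other 9 genes, so any simple bend is not in it. Its SD lay between 0.20 for Enpp2 and 0.60 for Slc4a5, small beside the ranges. The remainder differed by slide for some genes, a pattern looked at after the values were seen. For Folr1 it averaged -0.14 ± 0.27 on slide 1, -0.21 ± 0.33 on slide 2 and 0.35 ± 0.29 on slide 3 (SD, n = 8 each), and for Slc4a5 0.18 ± 0.14, 0.26 ± 0.73 and -0.44 ± 0.45. Its link to the slides or to the groups on them was not tested, since slide 3 held groups that no other slide held.

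More than 1 probe existed for Ttr, Folr1, Otx2, Slc4a5 and Prlr. Each of these extra probes followed the probe used, with r between 0.945 for Folr1 and 0.986 for Ttr and for Prlr. Ttr differed in scale between its probes: the probe used, A_65_P19832, ranged over 7.00 log2 units, and the other, A_51_P194149, over 9.01. Among the 13 arrays with a score above 0 the probe used ranged over 2.13 units, between 5.14 and 7.27, and the other over 3.50, between 0.90 and 4.40. Among the 11 arrays below 0 the ranges were 3.76 and 4.20. No spot carried the saturation flag, so the flattening of the probe used in the upper arrays is given as measured. The extra probes of Folr1, Otx2 and Slc4a5 were well above background on 16, 19 and 14 arrays, and those of Prlr on 24 and 15.

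**Figure D3:**
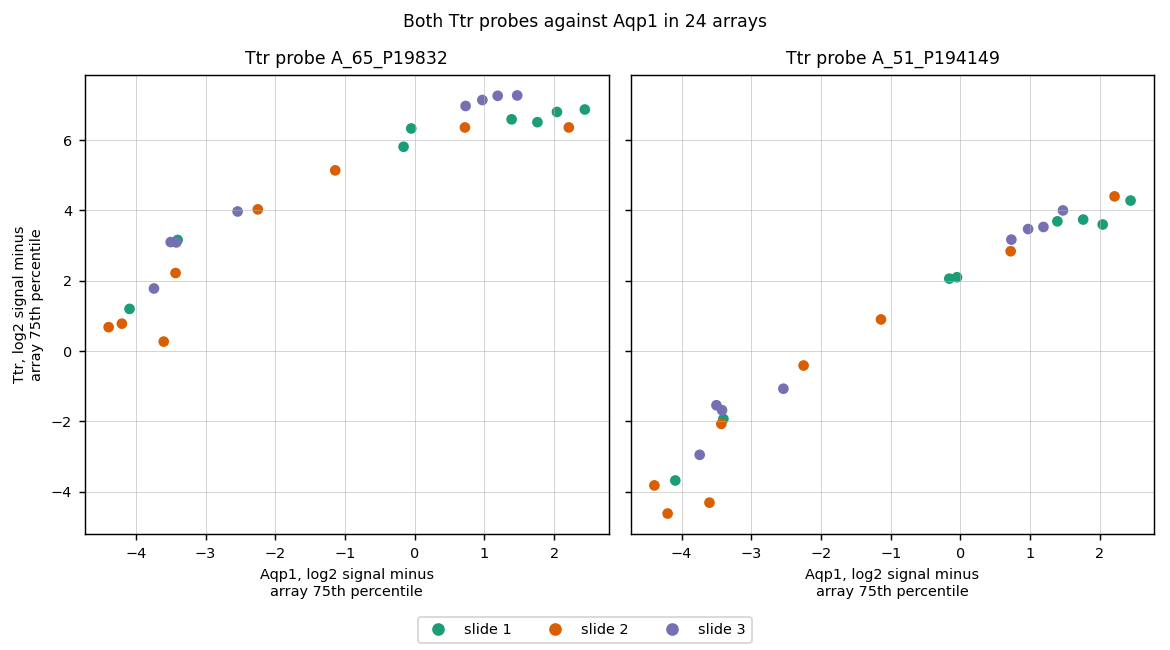
Log2 signal of the 2 Ttr probes (y axis) against Aqp1 (x axis), each minus the array's 75th percentile, in 24 arrays coloured by slide. The left probe flattens between 5.14 and 7.27 in the arrays with a score above 0, whereas the right one goes on to 4.40.

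Other genes of the choroid plexus moved with the members. Of 34 further choroid plexus genes, 33 were measured and Mfrp was not. All 33 had an r above 0.8 with the score over within-group deviations of the 24 arrays, with a median of 0.97, against a median of -0.11 over all features. The threshold of 0.8 was chosen after values were seen, and 1.78% of the 35249 features outside the member list passed it (629). This list and those below were chosen with earlier results of these data known, so 33 of 33 is a description and not independent support. The closest were F5, coagulation factor V (0.997), Cldn2, the claudin of the epithelium's leaky tight junctions (0.996), and Wfdc2, a secreted protease inhibitor family protein (0.996). Next came Ecrg4, a secreted precursor protein (0.995), Kcne2, a potassium channel subunit (0.995), and Sostdc1, a secreted antagonist of BMP and Wnt signals (0.992). The least alike were Car12, a carbonic anhydrase (0.83), Slc29a4, a monoamine transporter (0.83), and Spint2, a protease inhibitor (0.84). Kcne2 spanned 8.19 log2 units, between -5.21 and 2.98, while Slc29a4 spanned 1.82.

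Among all genes with a symbol, the 12 most like the score were those 6, then Otx2os1 (0.992), a transcript named for the strand opposite Otx2, Slco1a5, an organic anion transporter (0.990), and Smim22 (0.989), followed by Steap1, Col8a1 and Wdr86 (0.989 each). Of these 12, 9 were on the list of further choroid plexus genes, which was chosen with earlier results of these data known. On r above 0.9 there were 224 features, or 0.635%. Features with r below -0.8 numbered 43, or 0.122%, and their median range of 1.50 log2 units was smaller than the 2.15 of the features above 0.8 and near the 1.25 of all features. The lowest r belonged to Alg1 (-0.945, 23 arrays), a mannosyltransferase of N-glycan synthesis, Trex1, a DNA exonuclease (-0.933), Ydjc (-0.889), Arid3a, a DNA-binding protein (-0.888), and Lurap1l (-0.870). Alg1 ranged over 1.83 units, between -0.15 and 1.68.

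The general machinery of fluid secretion was divided. Of 11 ion transport genes used in making cerebrospinal fluid, 4 passed 0.8 and the median r was 0.61. Slc12a4, a potassium chloride cotransporter, and Car14, a carbonic anhydrase, had the highest r (0.94 each). Atp1b1, a sodium pump subunit that neurons express strongly, had an r of -0.08 and ranged over 0.55 log2 units.

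Ependymal genes were the nearest of the other cell types. Of 10 markers, 6 passed 0.8, with a median r of 0.86. Cfap126, a protein of motile cilia, had 0.94, and Tekt1, a protein of ciliary microtubules, and Mia each had 0.93. The mean level of the list ranged between -2.13 and 0.69 in APP-PS1_UA, -0.40 and 0.20 in APP-PS1_CTR, and -0.77 and 0.42 in WT_CTR, and between -1.06 and 0.11 in APP-PS1_UA-WASHOUT, -0.43 and 0.63 in APP-PS1_WASHOUT, and -1.42 and 0.59 in WT_WASHOUT. All 10 were kept by the filter on dim probes, and the part of ependymal RNA in the members' ranges was not tested.

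Meningeal and fibroblast genes were looser, with a median r of 0.50 and 0 of 11 above 0.8. Lum, a collagen-binding proteoglycan, had the highest r (0.70), and the lowest was -0.07. Genes of vessels and blood lay near 0: the median r was -0.06 for 12 endothelial genes, 0.04 for 4 blood cell genes and 0.01 for Plvap, a marker of fenestrated capillaries. Among the endothelial genes the tight junction gene Ocln (0.68) and the transporter Slco1a4 (0.62), which some epithelia also express, were highest.

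Lists of the brain parenchyma had lower median r than the choroid plexus and ependymal lists. The median r was 0.02 for 10 genes of hippocampal neurons, with 0 above 0.8, and 0.36 for 10 oligodendrocyte genes, of which 8 lay between 0.26 and 0.46, with Opalin (0.46) and Cldn11 (0.45) highest and Mbp (-0.62) lowest. It was -0.25 for 4 cortical genes, 0.26 for 8 genes of thalamus and habenula, with Prkcd at 0.67, and 0.12 for 5 striatal genes. Ppp1r1b, the dopamine signalling protein DARPP-32, which is not restricted to the striatum, had 0.82, and Rgs9 had -0.82 over a range of 0.63. For plaque-associated microglial genes the median was -0.09 over 9 genes.

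**Figure D4:**
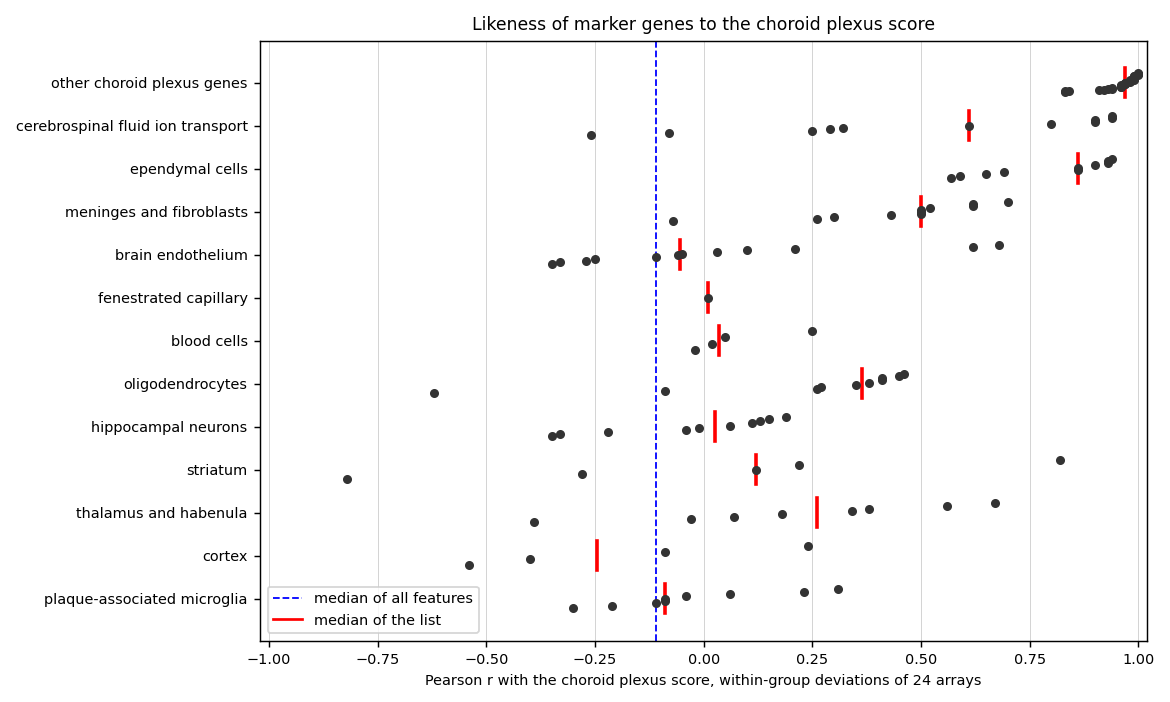
Pearson r between each marker gene and the choroid plexus score, over within-group deviations of 24 arrays (x axis), for 13 gene lists (rows). Points are genes, red bars list medians and the dashed line the median of all features (-0.11). The further choroid plexus genes all lie above 0.8, ependymal genes reach down to 0.57, and neuronal, endothelial and microglial lists centre near 0.

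Once group means were removed, the first direction of variation over all features lay close to the score, in an analysis added after the values were seen. Features were not scaled, so those with wide ranges weigh more. The first principal component of the within-group deviations of 34408 features measured on all arrays held 18.8% of the variance and had an absolute r of 0.97 with the score. Without the members and the further choroid plexus genes it held 16.9%, with an absolute r of 0.96. Without the features whose r was above 0.8 the first component held 13.2% with an absolute r of 0.44, and the second 11.4% with 0.64.

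Against this spread, the members were set beside the study's contrasts in a limma fit on all features. The first asks how transgenic and WT animals given water differ. All 10 members had higher means in APP-PS1_CTR than in WT_CTR, with a median difference of 1.80 log2 units, between 1.03 and 2.70, and a median of -0.01 over all features. Ttr averaged 6.48 ± 0.14 in APP-PS1_CTR (n = 3) and 4.24 ± 2.54 in WT_CTR (n = 4), a difference of 2.24 (SE 1.82, adjusted p = 0.844 by limma). This probe flattens in the upper arrays, and with the mean of the Ttr probes the difference was 2.70. Adjusted p lay between 0.840 and 0.894 by limma over the 10 members, and 0 of 10 were called, where 0.156% of all features were. By limma 0 of 10 had an unadjusted p under 0.05, where 2289 of the 35259 features had. On the probes used, every APP-PS1_CTR value of every member lay within the range of the WT_CTR arrays. The median difference was 1.0 without WT_CTR 2 and 2.78 without WT_CTR 1. With array row as a block it was 0.08, and on slide 1 the 2 groups filled different rows.

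The second contrast asks what urolithin A changes in transgenic animals. All 10 members had lower means in APP-PS1_UA than in APP-PS1_CTR, with a median difference of -2.35, between -3.63 and -1.17, and a median of -0.02 over all features. The -3.63 is that of Slc4a5 and takes APP-PS1_UA 4 at its measured value, which is an upper bound. Ttr averaged 3.63 ± 2.95 in APP-PS1_UA (n = 4) and 6.48 ± 0.14 in APP-PS1_CTR (n = 3), a difference of -2.85 (SE 1.82, adjusted p = 0.724 by limma). With the mean of the Ttr probes it was -3.17. By limma 0 of 10 were called, adjusted p lay between 0.724 and 0.792, and the share called among all features was 0%, while 2588 features had an unadjusted p under 0.05 and none of these was a member. For all 10 members, 3 of the 4 APP-PS1_UA arrays lay below every APP-PS1_CTR array and 1, APP-PS1_UA 1, lay above them all. That array was the only APP-PS1_UA array on the slide of APP-PS1_CTR, and the difference within slide 1 had a median of 1.41, the opposite direction. APP-PS1_UA 1 also shared array row 2 with APP-PS1_CTR, while APP-PS1_UA 2, 3 and 4 lay in row 1. The median was -3.61 without APP-PS1_UA 1, -1.49 without APP-PS1_UA 4, and -0.86 with array row as a block.

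**Figure D5:**
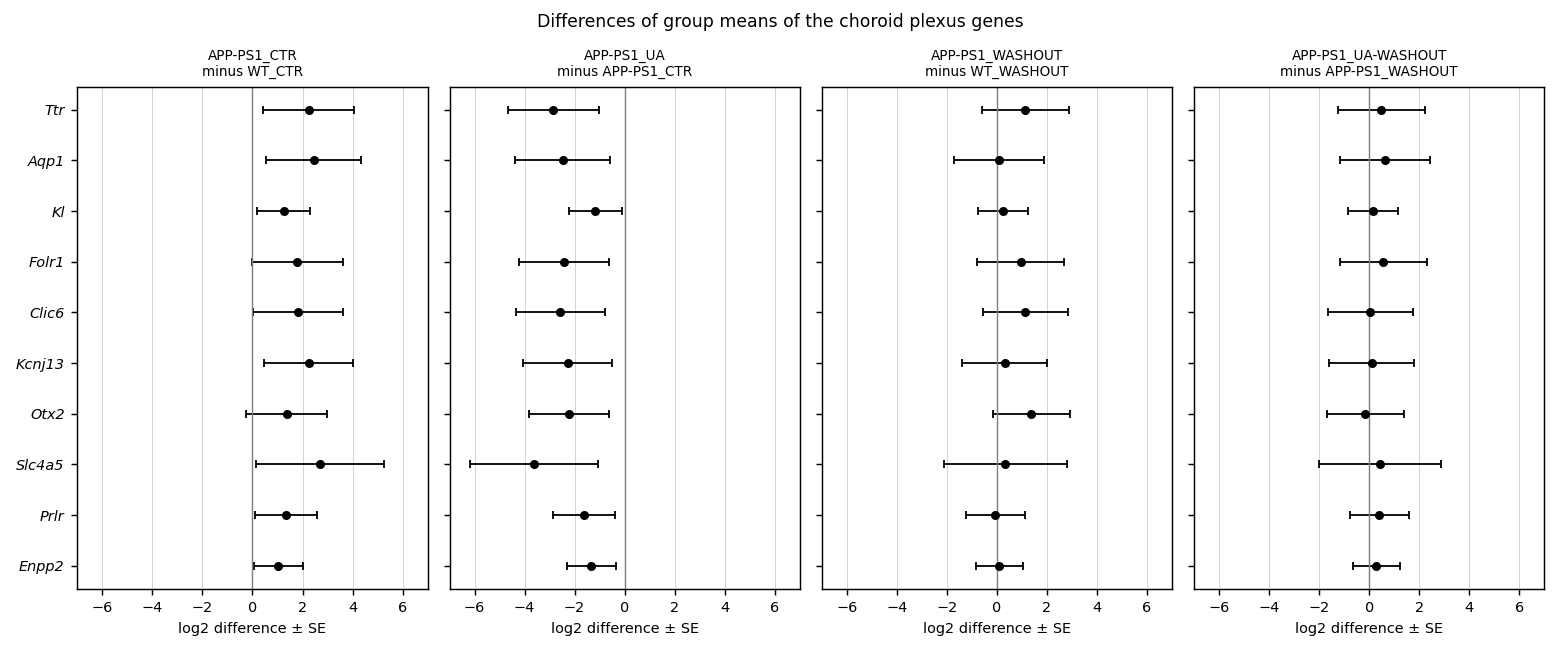
Differences of group means (x axis, log2 units, bars are the SE of the limma fit) of the 10 genes (rows) in 4 contrasts (panels). In the panel of APP-PS1_UA minus APP-PS1_CTR all 10 lie below 0, between -3.63 and -1.17, and in the 2 panels of the washout groups they lie between -0.16 and 1.37. By limma 0 of 10 were called in each panel.

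The third contrast set transgenic against WT animals after washout. The median difference of APP-PS1_WASHOUT minus WT_WASHOUT was 0.33, between -0.06 and 1.37, against 0.08 over all features. Otx2 had the largest, with 0.18 ± 1.47 in APP-PS1_WASHOUT (n = 3) and -1.19 ± 2.92 in WT_WASHOUT (n = 5), a difference of 1.37 (SE 1.53, adjusted p = 0.555 by limma). By limma 0 of 10 members were called in a contrast where 27.6% of all features were. These 2 groups lay wholly on different slides, so slide and genotype cannot be told apart there. The median went to -0.60 without APP-PS1_WASHOUT 3 and to 1.41 without APP-PS1_WASHOUT 2, and with array row as a block it was 2.15.

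Urolithin A followed by washout gave a median difference of 0.35 for APP-PS1_UA-WASHOUT minus APP-PS1_WASHOUT, between -0.16 and 0.63, against -0.01 over all features. Aqp1 averaged -0.87 ± 2.52 in APP-PS1_UA-WASHOUT (n = 5) and -1.50 ± 2.61 in APP-PS1_WASHOUT (n = 3), a difference of 0.63 (SE 1.81, adjusted p = 0.977 by limma). By limma 0 of 10 members were called, where 0.0624% of all features were. The median was -0.35 without APP-PS1_WASHOUT 2, 1.31 without APP-PS1_WASHOUT 3, and -1.04 with array row as a block.

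The difference between collection times was tested as an interaction. For the transgene effect (washout minus end of treatment) the members' median was -1.04, with adjusted p between 0.619 and 0.999 by limma and 0 of 10 called, where 14.2% of all features were. For the urolithin A effect it was 2.49, between 1.31 and 4.05, with adjusted p between 0.691 and 0.801 by limma and 0 of 10 called, where 0.00851% of all features were. The contrasts share the APP-PS1_CTR or the APP-PS1_WASHOUT arrays. In the transgene interaction, APP-PS1_WASHOUT and WT_WASHOUT lay on different slides while APP-PS1_CTR and WT_CTR shared slide 1. Slide and collection time cannot be told apart there, also for the 14.2%. The urolithin A interaction sets APP-PS1_UA 2, 3 and 4 on slide 2 against APP-PS1_CTR on slide 1.

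The 33 further choroid plexus genes had medians of 1.47, -1.66, 0.23 and 0.32 in the 4 contrasts, in the order given above, with 0 of 33 called in each by limma, where 0.156%, 0%, 27.6% and 0.0624% of all features were. Plaque-associated microglial genes of the same arrays are set beside them. Their median difference was 1.11 for APP-PS1_CTR minus WT_CTR with 7 of 9 called higher, where 0.156% of all features were called. It was 1.20 for APP-PS1_WASHOUT minus WT_WASHOUT with 8 of 9 called higher, where 27.6% of all features were called and the groups lay on different slides. Their median r with the score was -0.09.

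The SE gives the precision of these contrasts. For the members it lay between 0.98 and 2.55 log2 units in the contrasts at the end of treatment, and between 0.94 and 2.44 in those after washout. With the score of each array as a covariate, 37 features were called for APP-PS1_CTR minus WT_CTR, where 55 were called without it, and 36 were called in both. For APP-PS1_WASHOUT minus WT_WASHOUT the counts were 10136 with the score and 9741 without, with 9582 in both, and for APP-PS1_UA-WASHOUT minus APP-PS1_WASHOUT 26 and 22, with 22 in both. For APP-PS1_UA minus APP-PS1_CTR 0 were called by limma either way, with 2046 features at an unadjusted p under 0.05 with the score and 2588 without. Of the 55 features called for APP-PS1_CTR minus WT_CTR, 0 had an r above 0.8 with the score, and of the 9741 called for APP-PS1_WASHOUT minus WT_WASHOUT, 16 had. Over the features outside the member list the share was 1.78%, so 0 of 55 is not read as a result. Features above 0.8 had a median range of 2.15 log2 units, against 1.25 for all features. Whether the calls are free of choroid plexus variation was not tested.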

How the data were processed

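Spot intensities were deposited as Agilent scanner tables, which per the file headers come from Feature Extraction 12.0.3.1, and the processed signal is background-subtracted within an array. The deposited series table holds a score, which on all 24 arrays lay within 0.01 of each array's log signal standardized over all spots, with column medians from -0.17 to -0.06 and an unknown log base. From the processed signal, log2 values had the 75th percentile over non-control spots of the array subtracted, outlier-flagged spots were left out, and repeated spots of a probe were averaged. Probes well above background on at least 3 arrays, with at least 2 values in each group, were kept (43973 of 56605). Each gene took the values of whichever kept probe had the highest mean signal, and symbols came from RefSeq accessions, so 18566 of the 35259 features had one. A fit of 6 group means to 24 arrays was made with limma 3.58.1 in R 4.3.3, checked on simulated data, with Benjamini-Hochberg adjustment over all features and calls at 0.05. Tables and plots used Python 3.11.15, numpy 2.4.6, pandas 2.3.3 and matplotlib 3.10.9. The members and the 13 other gene lists were chosen with earlier results of these data known. Genes named were all members, the 6 nearest and 3 farthest further choroid plexus genes, the 12 highest and 5 lowest genes by r with the score, and at most 3 per other list by absolute r. Outside that rule, Atp1b1 was named after its value was seen. The alternatives tried were the background correction, normalization, filter, flags, probe choice, slide, array row, replicate number and leaving out each array. Nothing in the labels beyond the replicate number says that samples are separate animals, so p-values measure the spread between samples. Number of arrays limits the precision. The full strain name and the level of 1 listed ion transport gene are not reported here.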

Additional observations from a re-analysis of the deposited data

Results flagged for a closer look

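Kl in APP-PS1_UA 1 was 2.93, far above the other 3 arrays of its group (-0.01, -0.12 and -0.44), with a gap to the nearest of 0.871 of the group's range. In 44 sets of a gene and a group examined this was the 1 set that stood out so. Chance picks about 1 in 20 such sets, so 1 in 44 is no more than chance would give. The sets are not independent, since the members vary together. The same array had the highest choroid plexus score (3.67) and was the only APP-PS1_UA array on slide 1.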

How the results depend on the processing

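The number of members called was 0 of 10 in all 4 contrasts and both interactions under every alternative run. The median difference of APP-PS1_UA minus APP-PS1_CTR turned from -2.35 to 1.41 both with slide as a fixed block and within slide 1, which held only 1 APP-PS1_UA array beside APP-PS1_CTR. Leaving out each array gave -3.61 to -1.49 for it, 1.0 to 2.78 for APP-PS1_CTR minus WT_CTR, -0.60 to 1.41 for APP-PS1_WASHOUT minus WT_WASHOUT, -0.35 to 1.31 for APP-PS1_UA-WASHOUT minus APP-PS1_WASHOUT and 0.967 to 0.975 for the median r over member pairs. Other alternatives kept that r between 0.963 and 0.986. Array row as a block gave 0.08, -0.86, 2.15 and -1.04 in the 4 contrasts (APP-PS1_CTR minus WT_CTR, APP-PS1_UA minus APP-PS1_CTR, APP-PS1_WASHOUT minus WT_WASHOUT, APP-PS1_UA-WASHOUT minus APP-PS1_WASHOUT). The cause was not tested. With the replicate number as a block the medians were 1.45, -2.02, 0.19 and 0.45 in the same order, and the block changed no call. For samples with the same number, correlations of their deviations ran from -0.24 to 0.24, and whether they shared more than a number was not tested. On the authors' standardized values the medians were 0.41, -0.54, 0.05 and 0.08 score units. Of 732 recomputed secondary values, 711 stayed near the reported value. Most were differences of single genes, and the rest were counts of features with r above 0.8 or the median r of the further choroid plexus genes. For a gene, near means within 1 within-group SD, which was 1.36 to 3.53 log2 units, so a change of sign can count as near. With array row as a block, Folr1 went from 1.79 to -0.31 in APP-PS1_CTR minus WT_CTR and was counted so. Background correction by normexp on the mean signal was not run, because the files used hold the median signal; normexp on the median signal, chosen after the files were seen, gave medians of 1.70, -2.12, 0.29 and 0.34. Slide as a fixed block could not be fitted for APP-PS1_WASHOUT minus WT_WASHOUT, as no slide held both groups. Signal over background limits Slc4a5, whose probe was not well above background on 4 arrays.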
